A study of Mus musculus with 27 samples.

Results

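Gene expression in the mouse meninges 24 h after UVB light on the skull was compared with that of untreated meninges. The comparison holds 6 of the 27 libraries of the series, 3 labelled as meninges 24 h after photobiomodulation of the skull and 3 labelled as untreated meninges, called control below. They were taken by their labels for tissue and treatment, and no measured value entered that choice. Light of 311 nm at 2 mW was directed at the interparietal bone, a plate at the rear of the skullcap, and the meninges were later scraped from the rinsed skullcap and frozen. Poly(A) RNA was sequenced. A further 3 meninges libraries collected 0.5 h after irradiation serve as a second reference, and brain and skull libraries of the same times were used for tests of differences between tissues. The labels give no strain, age or sex, no clock time of collection, and no word on sham handling of the controls or on whether replicates came from separate animals. The p-values therefore measure only the spread between these samples, which may be technical.

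The meninges are the membranes between skull and brain. The outer dura holds fibroblasts, vessels, lymphatics and many resident macrophages that display antigen on MHC class II molecules, while arachnoid and pia lie toward the brain. Resident macrophages of these borders sample their surroundings and take part in local immune responses. UVB is absorbed mainly near the surface it strikes, and in skin it is known to damage DNA, start vitamin D synthesis and change the traffic of immune cells. By its title, the series asks whether light on the head alters brain border immunity and helps recovery after a stroke, and no library used here is labelled with stroke.

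The 6 libraries held 15.5 M to 18.2 M counts. Levels are given as CPM (counts-per-million values on TMM-scaled library totals), always in the order of replicates 1, 2 and 3, and log2 fold changes are 24 h over control with ± SE, n = 3 and 3. Of 18542 genes tested by the edgeR quasi-likelihood test, 1561 (8.42%) had an adjusted p under 0.05, 736 higher (3.97%) and 825 lower (4.45%) at 24 h. Such genes are called below. The median log2 fold change over all genes tested was 0.02, and among called genes 152 rose and 240 fell by more than 2-fold. In 28% of genes the 3 control libraries and the 3 at 24 h did not overlap. The plot of fold change against level shows calls in both directions across the range of expression.

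**Figure D1:**
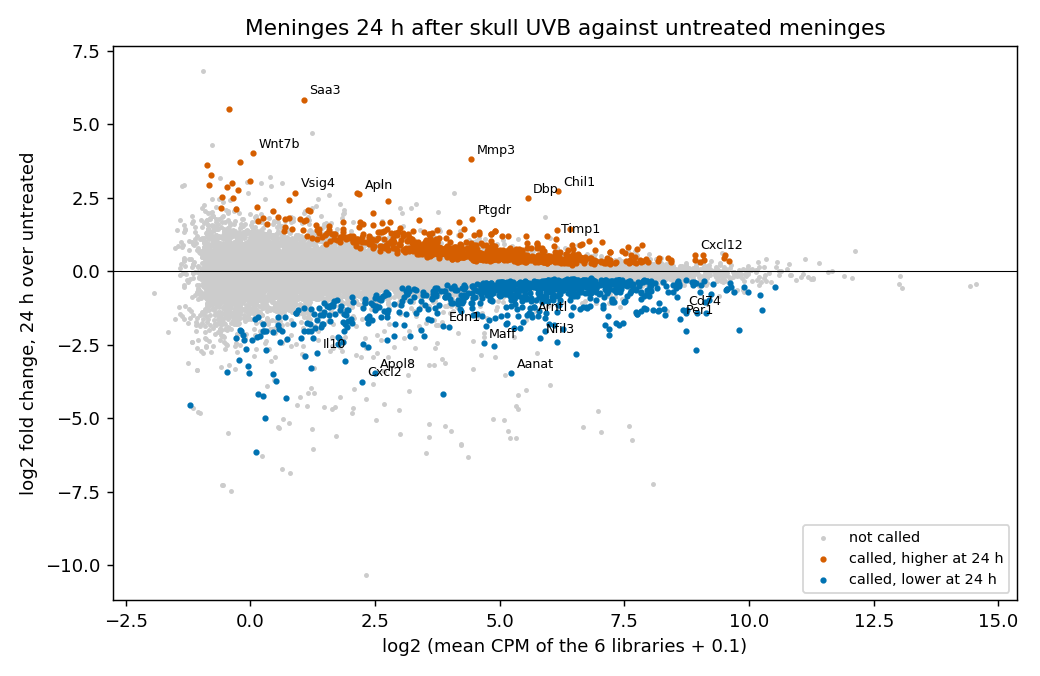
Each point is 1 of 18542 genes, with the log2 of its mean CPM over the 6 libraries (plus 0.1) on the horizontal axis and the log2 fold change at 24 h on the vertical axis. The 736 genes called higher and the 825 called lower are coloured, and genes described in the text are named.

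Markers of meningeal cells were present in every library. The summed level of 15 dural fibroblast genes was 3638 to 4459.5 CPM in control and 3666 to 4297 CPM at 24 h, and that of 21 markers of border-associated macrophages was 4017 to 4591 and 3847 to 4557 CPM. Neighbouring tissue was present too and unevenly so. The sum of 17 skeletal muscle genes stood at 7926 CPM in control 2 against 30.4 to 161 CPM in the other 5 libraries. Choroid plexus genes (18 members) ranged from 725 to 10507 CPM among controls and from 794 to 21258 CPM at 24 h, with 24 h 1 the highest, and 24 h 1 also had the lowest sum of 20 osteoblast and osteocyte genes (14622 to 30257 CPM at 24 h, 22772 to 40454 CPM in control). None of the muscle or choroid plexus genes was called. With control 2 and 24 h 1 both left out, an alternative added after seeing the data, 647 genes were called, and of 170 called genes that the naming rule picks, 102 kept the call and all 170 kept their sign.

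**Figure D2:**
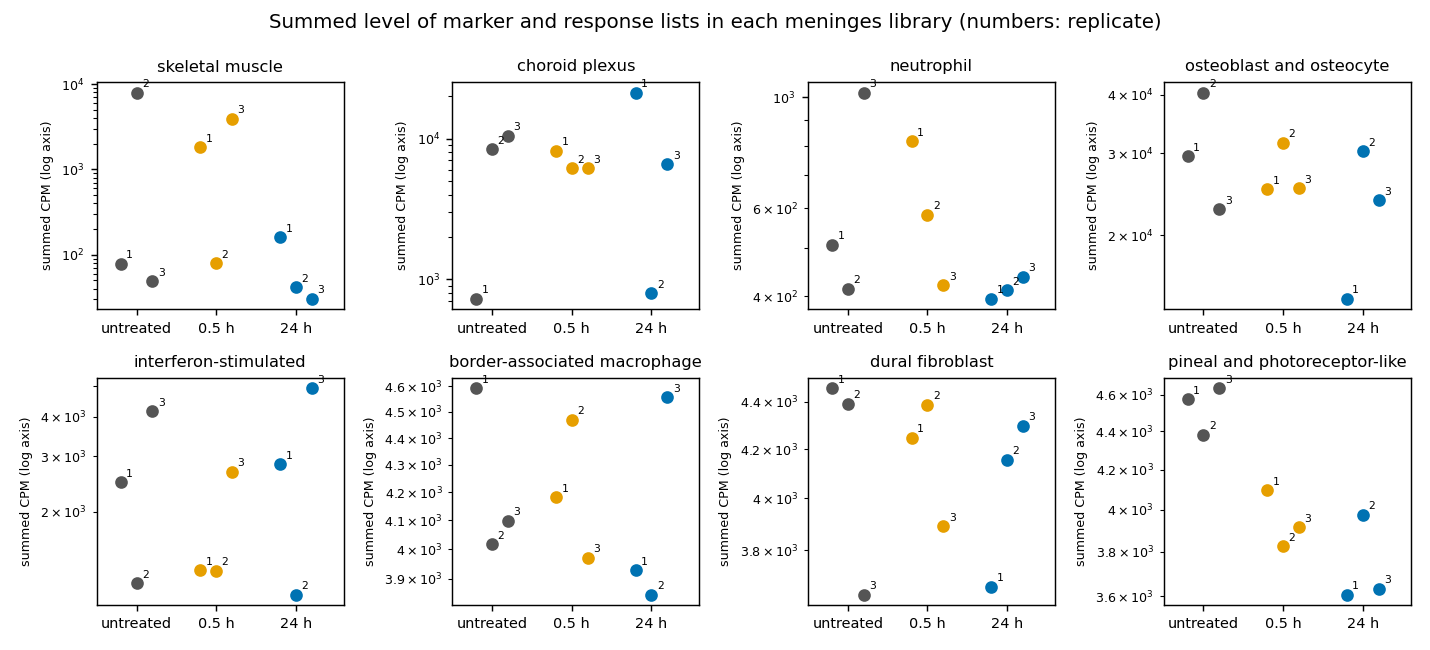
The summed CPM of 8 gene lists is plotted on a log axis for each of 9 meninges libraries, grouped as untreated, 0.5 h and 24 h, with the replicate number beside each point. Muscle genes stand at 7926 CPM in untreated 2, choroid plexus genes at 21258 CPM in 24 h 1, and interferon-stimulated genes differ within each group by more than 2-fold.

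The matrix protease gene Mmp3 and the inhibitor gene Timp1 rose, while other members of their list did not. Mmp3 encodes stromelysin 1, a secreted protease of fibroblasts that cuts matrix proteins and activates other proteases (chromosome 9, 7445822 to 7455975, plus strand). Its level was 2.47, 2.85 and 3.19 CPM in control, 3.79, 3.16 and 5.61 CPM at 0.5 h and 28.3, 48.5 and 43.5 CPM at 24 h. The lowest 24 h library exceeded the highest of the other 6 by a wide margin, and the gene rose 14.1-fold on group means (3.81 ± 0.27, adjusted p = 6.34e-05). Timp1, an inhibitor of metalloproteinases, rose from 44.6, 38.4 and 49.8 to 79.4, 102 and 105 CPM (1.11 ± 0.12, adjusted p = 0.000583). Against 0.5 h, in a comparison that reuses the 24 h libraries, Mmp3 was higher by 3.25 ± 0.26, adjusted p = 0.000589, and Timp1 by 1.37 ± 0.12, adjusted p = 0.000871. Adamts1, a protease that cleaves proteoglycans, fell (−0.79 ± 0.14, adjusted p = 0.00848), and so did Timp3 (−0.40 ± 0.11, adjusted p = 0.045), which shares 1733 exon bases with Syn3. In all 2 of 27 tested members rose and 2 fell (median −0.23, 14.8% called against 8.42% of all genes). Timp3 lost its call without any 1 of 4 of the 6 libraries. The calls of Timp3 and Adamts1 were lost with control 2 and 24 h 1 left out together (adjusted p = 0.165 and 0.076). In a fit of all 27 libraries, where the 3 tissues share 1 estimate of spread, Timp1 had an adjusted p of 0.0594.

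The stretch before the start of Mmp3 is shown because AP-1, the dimer of Fos and Jun proteins, is a textbook activator of this gene, and Jun and other AP-1 genes are described below. It is the plus strand of chr9:7445672-7445821 (RefSeq, GRCm38.p6), 150 bases that end at the base before the annotated start, with the AP-1 motif TGAGTCA in capitals, whose first base lies 46 bases before the start. That motif, searched on both strands, is in 4.46% of the 32851 RefSeq promoters over the 250 bases before the start.
Mmp3: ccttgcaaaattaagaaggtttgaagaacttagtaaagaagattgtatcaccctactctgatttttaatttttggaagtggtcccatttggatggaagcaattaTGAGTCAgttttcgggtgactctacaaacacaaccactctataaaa

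Proteins of the acute phase and tissue injury followed Mmp3 in part. Chil1, a chitinase-like glycoprotein secreted by macrophages, astrocytes and other cells in inflammation (chromosome 1, 134182176 to 134190181, plus strand), was at 16.0, 16.3 and 24.3 CPM in control, 16.7, 15.7 and 15.6 CPM at 0.5 h and 129, 145 and 100.3 CPM at 24 h (2.72 ± 0.18, adjusted p = 6.45e-05). Saa3, a serum amyloid A protein made outside the liver (chromosome 7, 46711998 to 46715700, minus strand), had 3 counts over the control group and 195 over the 24 h group. The ratio on TMM-scaled totals was 64.2, with an exact 95% counting interval from 21.7 to 314, and the adjusted p was 0.000521. Chil1 and Saa3 were the 2 of 17 tested acute-phase genes to pass (11.8%, against 8.42% of all genes). The list's median of 0.05 lay close to that of all genes.

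Structural matrix genes changed less. Collagens had 3 of 37 tested members lower and 0 higher (median −0.09), so that 8.11% were called against 8.42% of all genes. The members that fell were the transmembrane collagen Col13a1 (−0.73 ± 0.15, adjusted p = 0.0143), Col7a1 of anchoring fibrils (−0.45 ± 0.12, adjusted p = 0.0382) and Col15a1 of basement membrane zones (−0.59 ± 0.16, adjusted p = 0.0442). With a single library left out 0 to 2 collagens were lower, none without 24 h 3. Each of these 3 calls was lost when control 2 and 24 h 1 were left out together. The summed level of collagen genes was lowest in 24 h 1, and its part in these falls was not tested. Ccn2 and Ccn1, matricellular proteins that mechanical load and growth factors induce, fell more. Ccn2 was at 824, 752 and 882 CPM in control and 349.7, 266 and 300.5 CPM at 24 h (−1.42 ± 0.11, adjusted p = 0.00011). Ccn1 was at 1731, 1859 and 1655 and 820.3, 527 and 749.8 CPM (−1.32 ± 0.16, adjusted p = 0.00108; adjusted p = 0.0875 in the fit of all 27 libraries). Ccn2 was already low at 0.5 h (378, 388 and 348 CPM; −1.14 ± 0.11, adjusted p = 0.00184). Prg4, which encodes the lubricant lubricin, was called higher (1.20 ± 0.26, adjusted p = 0.0279) at 57.5, 96.7 and 105 CPM against 43.6, 29.8 and 39.1 CPM, and the call was lost without any 1 of 5 of the 6 libraries. In all 1 of 38 matrix glycoprotein genes rose and 2 fell (7.89% called, against 8.42% of all genes).

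Chemokines moved in opposite directions. Cxcl12, which holds leukocytes and progenitors in their niches through the receptor Cxcr4, rose from 405, 382 and 388 to 548, 649 and 532 CPM (0.56 ± 0.09, adjusted p = 0.00523). Those that fell attract neutrophils, T cells or eosinophils. Cxcl2, a neutrophil attractant, was at 6.68, 9.37 and 9.75 CPM in control, 3.09, 4.23 and 3.65 CPM at 0.5 h and 0.239, 0.592 and 1.08 CPM at 24 h (−3.75 ± 0.42, adjusted p = 0.000611). Its relative Cxcl1 went from 2.14, 4.27 and 4.85 to 0.958, 0.770 and 1.21 CPM (−1.94 ± 0.39, adjusted p = 0.0145). Cxcl9, an interferon-gamma target that draws T cells, went from 20.6, 14.1 and 16.4 to 2.87, 3.55 and 6.22 CPM (−2.01 ± 0.27, adjusted p = 0.00195), and Ccl24, an eosinophil attractant, from 6.41, 6.40 and 3.37 to 2.63, 1.36 and 1.78 CPM (−1.48 ± 0.34, adjusted p = 0.0227). For each of these 4 genes the control and 24 h libraries did not overlap, as in 28% of all genes tested. They are 4 of 27 tested chemokines lower against 1 higher (median −0.30, 18.5% called against 8.42% of all genes). All 4 falls lost the call in the fit of all 27 libraries (adjusted p from 0.0547 for Ccl24 to 0.295 for Cxcl1), and Cxcl1 also without control 2 or 24 h 2 and Ccl24 without any 1 of 4 libraries. Among receptors, Ackr3, a scavenger of Cxcl12, fell from 57.7, 54.3 and 50.5 to 23.5, 23.5 and 27.7 CPM (−1.12 ± 0.13, adjusted p = 0.000709), as did Ccrl2, a receptor that binds chemerin (−1.41 ± 0.21, adjusted p = 0.00331). Ccr2, the receptor of inflammatory monocytes, was called higher at 66.3, 66.8 and 69.8 CPM against 50.03, 28.2 and 40.1 CPM (0.78 ± 0.18, adjusted p = 0.0288), and lost the call without control 3 or any 1 of the 24 h libraries (adjusted p up to 0.0849). Of 17 tested receptors 1 rose and 2 fell (17.6% called, against 8.42% of all genes).

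Of the genes called among cytokines and targets of NF-kB, a factor that switches on inflammatory genes together with their own brakes, most were lower. Cd14, a co-receptor for bacterial lipopolysaccharide on macrophages, was at 54.2, 45.1 and 45.4 CPM in control, 37.9, 34.7 and 34.4 CPM at 0.5 h and 16.5, 16.5 and 17.6 CPM at 24 h (−1.51 ± 0.10, adjusted p = 6.29e-05). Nfkbia encodes the inhibitor that holds NF-kB in the cytoplasm. Its level was 295, 307 and 346 CPM in control, 196, 183 and 206 CPM at 0.5 h and 97.0, 102 and 143 CPM at 24 h (−1.47 ± 0.14, adjusted p = 0.000224). Tnfaip3, a ubiquitin-editing brake on NF-kB, fell from 40.0, 40.3 and 44.4 to 10.7, 13.3 and 15.9 CPM (−1.65 ± 0.15, adjusted p = 0.000179), and Tnfaip2 fell as well (−0.95 ± 0.09, adjusted p = 0.000315). In the fit of all 27 libraries Tnfaip2 had an adjusted p of 0.0892. The exception in the list was Csf1, the growth factor of macrophages, which rose from 123, 108 and 117 to 159.5, 188 and 197 CPM (0.65 ± 0.10, adjusted p = 0.00315). In all 7 of 31 tested members fell and 1 rose (median −0.17). With any single library left out, 7 to 10 were called lower. Among interleukins and their signalling genes, Il10, an anti-inflammatory cytokine, fell from 3.21, 3.50 and 6.09 to 0.658, 0.178 and 1.01 CPM (−2.78 ± 0.49, adjusted p = 0.00769). Socs3, a brake on cytokine receptors, fell from 50.7, 62.4 and 91.7 to 31.5, 20.2 and 21.6 CPM (−1.48 ± 0.25, adjusted p = 0.00918) and was as low at 0.5 h (20.9, 26.6 and 21.3 CPM). Osm, which encodes oncostatin M, fell (−1.46 ± 0.33, adjusted p = 0.0217), and Il16 was called higher (0.73 ± 0.17, adjusted p = 0.0271), though it shares 1202 exon bases with Stard5 and lost the call without any 1 of 4 of the 6 libraries. Osm also lost it without any 1 of 4. In this list 3 of 37 fell and 1 rose (10.8% called, against 8.42% of all genes).

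Part of the genes that load and display peptides on MHC class II fell, 4 of them by much the same factor. H2-Eb1, H2-Ab1 and H2-Aa encode class II chains, and Cd74 the invariant chain that guides them to the endosome. H2-Eb1 was at 492, 346 and 411 CPM in control, 292, 289 and 309.6 CPM at 0.5 h and 173, 153 and 164 CPM at 24 h (−1.35 ± 0.12, adjusted p = 0.000171). Cd74 was at 690.4, 489.6 and 580.4 CPM in control, 449.6, 457 and 486 CPM at 0.5 h and 246, 229 and 224 CPM at 24 h (−1.33 ± 0.12, adjusted p = 0.000171). The controls varied more than either other group, and no control library came as low as a 24 h library. H2-Ab1 (−1.33 ± 0.12, adjusted p = 0.000194) and H2-Aa (−1.31 ± 0.13, adjusted p = 0.000271) fell by nearly the same amount. The fifth member called, H2-DMa, a peptide exchange factor named here after its value was seen, fell from 32.9, 35.2 and 35.1 to 22.3, 15.6 and 21.6 CPM (−0.79 ± 0.15, adjusted p = 0.00998). Ciita, the coactivator that switches these genes on, was at 20.6, 17.1 and 18.4 CPM in control and 12.03, 19.7 and 23.8 CPM at 24 h (−0.02 ± 0.21, adjusted p = 0.972; it too was chosen after its value was seen). The same 24 h libraries were also set against those at 0.5 h. There the log2 difference was −0.86 ± 0.12, adjusted p = 0.00727 for H2-Eb1 and −0.99 ± 0.12, adjusted p = 0.00295 for Cd74. The list gave 5 of 12 tested members lower and 0 higher, with a median of −0.59. The summed level of the macrophage markers, given above, overlapped between the groups. The sums for dendritic cells and B cells, which also carry class II, did not, and neither did 28% of all single genes tested. Dendritic cell genes summed to 2085 to 2187 CPM in control and 1532 to 1687 CPM at 24 h, and B cell genes to 248.6 to 261 CPM and 187 to 235 CPM. In these lists 12 of 15 and 17 of 18 tested genes were not called. The part of these cells in the fall of class II was not tested. The count of class II genes was 5 or 6 with any single library left out and 5 without control 2 and 24 h 1. In the fit of all 27 libraries H2-Ab1, H2-Eb1, H2-Aa and Cd74 kept their size but not the call (adjusted p = 0.0531, 0.0573, 0.0707 and 0.0965).

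Class II genes carry a known set of promoter boxes that Ciita and its partners need, among them the Y box, a reverse or forward ATTGG bound by NF-Y. The stretches before H2-Eb1 (chr17:34305717-34305866, plus strand) and H2-Aa (chr17:34287824-34287973, minus strand) are shown because these genes fell together (RefSeq, GRCm38.p6). Each is 150 bases that end at the base before the annotated start. Capitals mark ATTGG or its reverse complement CCAAT, and in H2-Aa also TGACGTCA, the palindrome that CREB family factors bind. ATTGG starts 59 bases before the start of H2-Eb1 and 48 before that of H2-Aa, CCAAT 35 before H2-Eb1, and TGACGTCA 74 before H2-Aa, with no overlap between them. On either strand ATTGG was in 33.8% of the 32851 promoters over 250 bases and TGACGTCA in 1.55%. Of 12 genes in the list 9 had a promoter entry, and 8 of these held ATTGG.
H2-Eb1: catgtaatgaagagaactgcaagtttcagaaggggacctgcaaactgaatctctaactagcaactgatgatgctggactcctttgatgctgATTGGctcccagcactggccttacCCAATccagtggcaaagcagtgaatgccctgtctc
H2-Aa: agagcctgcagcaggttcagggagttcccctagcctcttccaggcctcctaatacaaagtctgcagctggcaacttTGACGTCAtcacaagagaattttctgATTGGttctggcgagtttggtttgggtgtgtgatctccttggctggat

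None of 17 class I genes and none of 39 interferon-stimulated genes was called in either direction (medians −0.29 and 0.22), where 8.42% of all genes were. With a single library left out, 0 to 4 class I genes were called lower (medians from −0.74 to −0.05). The class I sum was 4398, 2754 and 5447 CPM in the controls and 2249, 2018 and 4143 CPM at 24 h. The summed level of the interferon list was 2475, 1184 and 4177 CPM in the controls and 2832, 1091 and 4925 CPM at 24 h, so that replicates of 1 group differed by more than the groups did. H2-D1 was at 1102, 679.96 and 1247 CPM and 511, 500.2 and 861 CPM (−0.69 ± 0.26, adjusted p = 0.152). Isg20, the interferon gene with the smallest p, gave −0.52 ± 0.26, adjusted p = 0.261.

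**Figure D3:**
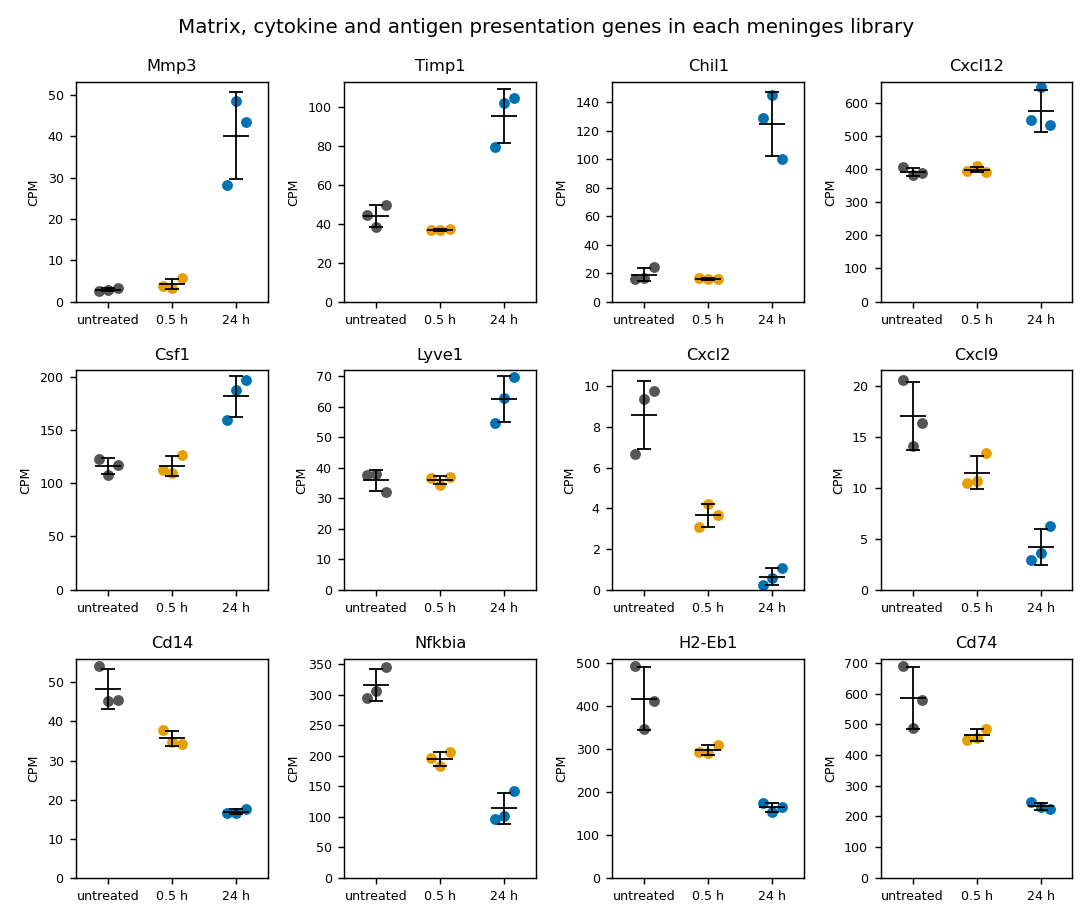
CPM is plotted in each of 9 meninges libraries (points, replicates 1 to 3 from left to right) for 12 genes, with the mean and SD of each group of 3 in black. Mmp3, Timp1, Chil1, Cxcl12, Csf1 and Lyve1 stood higher in each 24 h library than in any other, and Cxcl2, Cxcl9, Cd14, Nfkbia, H2-Eb1 and Cd74 lower.

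Markers of border-associated macrophages changed in both directions. Lyve1, a hyaluronan receptor of perivascular macrophages and lymphatic endothelium, rose from 37.7, 38.1 and 32.0 to 54.8, 62.9 and 69.8 CPM (0.80 ± 0.11, adjusted p = 0.00212). F13a1, the coagulation factor XIII A chain made by resident macrophages, rose from 160.2, 137 and 112 to 221, 261 and 244 CPM (0.83 ± 0.12, adjusted p = 0.00295), and Cbr2, a carbonyl reductase, from 83.6, 77.4 and 82.3 to 107, 111 and 126 CPM (0.50 ± 0.09, adjusted p = 0.00918). Maf, a transcription factor of tissue macrophages, fell (−0.56 ± 0.10, adjusted p = 0.00753), and so did Cd209a, a lectin of dendritic cells (−0.68 ± 0.17, adjusted p = 0.0364). Together with Ccr2, above, 4 of 21 tested markers rose and 2 fell (median 0.17). The list's summed level overlapped between the groups. In bulk tissue fewer cells of a type and less RNA per cell cannot be told apart, and this holds for every cell marker described here. Vsig4, the complement receptor of resident macrophages, was at 0.534, 0.237 and 0.650 CPM in control and 2.57, 2.90 and 3.68 CPM at 24 h (2.67 ± 0.43, adjusted p = 0.00419). Of other complement genes, the protease Cfi (1.82 ± 0.47, adjusted p = 0.0391) and the C3a receptor C3ar1 (1.02 ± 0.25, adjusted p = 0.0419) were called higher, and Cfi lost the call without any 1 of the 6 libraries and C3ar1 without any 1 of 5. The complement list had 3 of 23 members higher and 0 lower (13% called, against 8.42% of all genes). With a single library left out 1 or 2 were higher. P2ry13 (1.24 ± 0.19, adjusted p = 0.00357) and Trem2 (0.97 ± 0.24, adjusted p = 0.0294), receptors of microglia that other macrophages also express, rose as 2 of 11 microglia markers (18.2% called, against 8.42% of all genes). Trem2 and Cd209a lost the call without any 1 of 5 of the 6 libraries, and Cbr2 without control 2. In the fit of all 27 libraries Ccr2, Cd209a, Cfi and Cbr2 were not called (adjusted p = 0.0776, 0.0856, 0.1 and 0.175).

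Dendritic cell markers had 3 of 15 tested members lower and 0 higher (median −0.20). They were Cd83, a maturation marker (−0.94 ± 0.15, adjusted p = 0.005), the protease inhibitor Cst3 (−0.53 ± 0.12, adjusted p = 0.019) and Cd209a. Only Cd83 kept the call without control 2 and 24 h 1, and also without control 2 or 24 h 2 alone. Of 27 tested T and NK cell genes 2 fell (7.41% called, against 8.42% of all genes). Among them was Rora (−0.61 ± 0.10, adjusted p = 0.00549), a nuclear receptor that many meningeal cells express. Of 18 B cell genes 1 fell (5.56%), Ebf1 (−0.46 ± 0.08, adjusted p = 0.00813), which fibroblasts and adipocytes express as well. None of 19 neutrophil genes was called (median −0.66), and their summed level was 1021 CPM in control 3 against 395 to 507 CPM in the other 5 libraries. Mast cell genes had 1 of 14 higher, the prostaglandin D synthase Hpgds (0.68 ± 0.15, adjusted p = 0.0201), and 2 lower, the histidine decarboxylase Hdc (−1.08 ± 0.18, adjusted p = 0.00484) and Gata2 (−0.41 ± 0.10, adjusted p = 0.0272). Ptgdr, the receptor of prostaglandin D2, rose from 9.75, 9.13 and 10.7 to 31.9, 40.2 and 29.2 CPM (1.78 ± 0.16, adjusted p = 0.000169), and was already at 24.97, 25.7 and 19.5 CPM at 0.5 h (1.24 ± 0.15, adjusted p = 0.00597). It shares 705 exon bases with Gm16976. With Hpgds and the leukotriene receptor Cysltr1 (0.70 ± 0.19, adjusted p = 0.0445) it made 3 of 29 prostaglandin and leukotriene genes higher, against 1 lower, the phospholipase Pla2g2d (−0.74 ± 0.17, adjusted p = 0.0232). The share called in that list was 13.8%, against 8.42% of all genes. Cysltr1 lost the call without any 1 of the 6 libraries, Gata2 without any 1 of 5, Pla2g2d without any 1 of 3, and Hpgds without control 2 or 24 h 2, so that 1 or 2 of the prostaglandin and leukotriene genes were higher with a library left out.

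Clock genes changed in both directions, more of them than of most lists. The cellular clock runs on a loop in which Arntl (BMAL1) with Clock or Npas2 drives the Per and Cry genes, whose products shut the drivers off, and in which the outputs Dbp, Hlf and Tef and the repressor Nfil3 compete for shared sites. Activators fell. Arntl was at 77.9, 76.8 and 70.7 CPM in control, 73.6, 65.1 and 64.7 CPM at 0.5 h and 22.2, 20.4 and 34.4 CPM at 24 h (−1.55 ± 0.17, adjusted p = 0.000822). Npas2 (−1.60 ± 0.28, adjusted p = 0.0136; named after its value was seen) also fell. Per1 and Cry2 of the repressing arm fell as well. Per1 was at 608, 625 and 556 CPM in control, 228, 212 and 270.3 CPM at 0.5 h and 190.4, 173 and 213 CPM at 24 h (−1.63 ± 0.11, adjusted p = 6.29e-05; chromosome 11, 69095217 to 69109960, plus strand). Cry2 was at 117, 104 and 113 CPM in control, 62.7, 57.8 and 60.7 CPM at 0.5 h and 71.5, 63.3 and 50.1 CPM at 24 h (−0.85 ± 0.11, adjusted p = 0.00185). For these 2 genes the 0.5 h and 24 h libraries lay together, and the 24 h to 0.5 h difference was −0.30 ± 0.11, adjusted p = 0.207 for Per1 and 0.03 ± 0.11, adjusted p = 0.933 for Cry2.

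Per2 and Per3 went the other way. Per3 was at 45.3, 50.8 and 41.0 CPM in control, 53.9, 60.1 and 59.7 CPM at 0.5 h and 139.8, 146 and 86.5 CPM at 24 h (1.44 ± 0.18, adjusted p = 0.00243; chromosome 4, 151003652 to 151044665, minus strand). Per2 was at 14.8, 16.9 and 17.8 CPM in control, 20.4, 15.7 and 14.5 CPM at 0.5 h and 48.9, 43.6 and 26.7 CPM at 24 h (1.27 ± 0.22, adjusted p = 0.00775). Both exceeded the 0.5 h libraries, by 1.10 ± 0.18, adjusted p = 0.0189 and 1.24 ± 0.22, adjusted p = 0.0196. The nuclear receptor Nr1d2 (REV-ERB beta), a repressor of Arntl, rose from 97.0, 93.5 and 75.3 to 198, 181 and 152 CPM (1.999-fold on group means, adjusted p = 0.003). The output factor Dbp was at 11.7, 16.0 and 15.4 CPM in control and 103, 89.6 and 46.5 CPM at 24 h (2.47 ± 0.38, adjusted p = 0.0108), sharing 539 exon bases with Sphk2, and Hlf rose by 0.84 ± 0.12, adjusted p = 0.00261. Nfil3, the repressor at the sites of these outputs, was at 94.98, 91.6 and 91.2 CPM in control, 43.7, 36.0 and 49.9 CPM at 0.5 h and 16.9, 15.1 and 25.4 CPM at 24 h (−2.27 ± 0.19, adjusted p = 0.000194). In 24 h 3 Per2, Per3, Nr1d2, Dbp and Hlf were lowest of the 24 h group and Arntl and Nfil3 highest, which in each case is toward the controls. Of 20 tested clock genes 6 rose and 7 fell, with 16 not overlapping between groups, where 28% of all genes tested did not overlap. Leaving out any single library gave 6 higher and 5 to 7 lower, and leaving out control 2 and 24 h 1 together gave 3 and 6, where Dbp and Per2 were not called (adjusted p = 0.0793 and 0.057). No label gives the hour of collection, and its part in these changes was not tested.

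**Figure D4:**
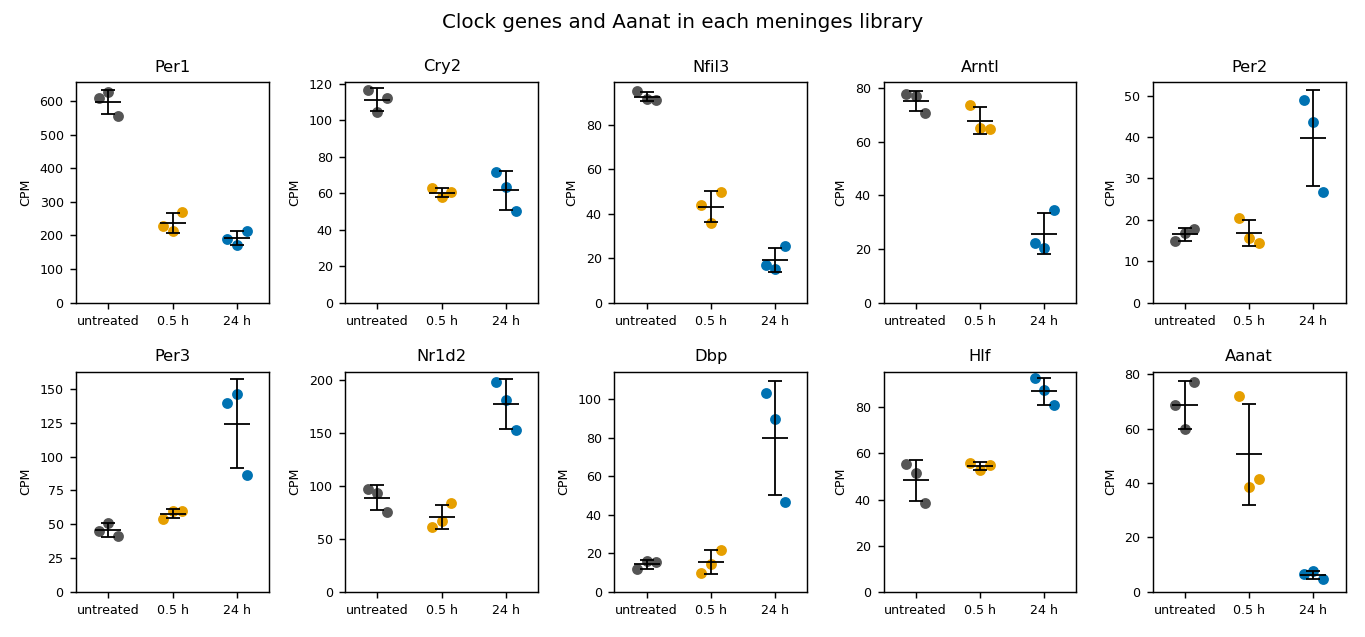
CPM in each of 9 meninges libraries is shown for 9 clock genes and Aanat, points being replicates 1 to 3 from left to right and black marks the mean and SD of each group of 3. Per1, Cry2 and Nfil3 were low at 0.5 h already, while Arntl, Per2, Per3, Nr1d2, Dbp, Hlf and Aanat at 24 h stood apart from both other groups.

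Promoters of 2 Per genes that went in opposite directions are shown with the elements by which the clock is known to act on them, the E-box CACGTG for Arntl and its partners and the D-box TTATGTAA for Dbp, Hlf, Tef and Nfil3 (RefSeq, GRCm38.p6, 250 bases that end before the annotated start). Per1 (chr11:69098699-69098948, plus strand) has 2 entries, both at starts inside the gene span given above, and the first is shown. It holds CACGTG with its first base 166 bases before the start. Per3 (chr4:151044666-151044915, minus strand) holds TTATGTAA at 205 and at 158 bases before the start. For Per3 the stretch meets the gene start given above. Capitals mark these motifs, which do not overlap. Searched on both strands, CACGTG was in 6.02% and TTATGTAA in 0.819% of the 32851 promoters. Among 20 clock genes, 17 had a promoter entry, of which 5 held CACGTG and Per3 alone held TTATGTAA.
Per1: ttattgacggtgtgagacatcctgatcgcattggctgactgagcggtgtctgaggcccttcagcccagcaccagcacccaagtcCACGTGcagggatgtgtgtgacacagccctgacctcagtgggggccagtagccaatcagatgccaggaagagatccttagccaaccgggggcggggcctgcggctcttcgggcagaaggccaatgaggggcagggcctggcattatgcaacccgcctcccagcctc
Per3: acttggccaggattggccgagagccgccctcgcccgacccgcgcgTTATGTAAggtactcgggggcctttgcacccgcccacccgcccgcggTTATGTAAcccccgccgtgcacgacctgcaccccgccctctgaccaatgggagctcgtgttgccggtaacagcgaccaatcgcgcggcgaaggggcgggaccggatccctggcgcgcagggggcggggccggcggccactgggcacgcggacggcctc

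Markers of the pineal gland, which lies against the dura at the rear of the skull, were present in all libraries (4383 to 4636 CPM summed in control, 3608 to 3976 CPM at 24 h). Aanat, the enzyme that sets the nightly rate of melatonin synthesis, was at 68.7, 59.9 and 77.3 CPM in control, 71.9, 38.4 and 41.3 CPM at 0.5 h and 6.40, 7.52 and 4.63 CPM at 24 h (−3.47 ± 0.29, adjusted p = 0.000502). Its fall of 11.1-fold was far larger than that of the list, whose sum at 24 h lay below the controls by a smaller step. The cone phosphodiesterase Pde6c (−0.60 ± 0.09, adjusted p = 0.00295), the transducin subunit Gngt2 (−0.67 ± 0.13, adjusted p = 0.0119) and the disc protein Rom1 (−0.58 ± 0.12, adjusted p = 0.0138) fell too. In all 9 of 23 tested pineal genes fell and 0 rose (median −0.33). Without 24 h 3 this count was 3, Rom1 not being among them. The count was also 3 without control 2 and 24 h 1, where Rom1 and Gngt2 were not called (adjusted p = 0.0877 and 0.0841).

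Genes that glucocorticoid hormones induce had the largest share of members called lower among the 58 lists. The hormone, secreted in stress and before the active phase of the day, acts through its receptor on Per1, Sgk1, Tsc22d3 and many others. Of 23 tested members 17 fell and 0 rose, with a median of −1.42. Map3k6, a stress kinase, was at 74.1, 68.7 and 61.7 CPM in control, 40.6, 42.9 and 41.8 CPM at 0.5 h and 16.4, 21.6 and 24.0 CPM at 24 h (−1.72 ± 0.13, adjusted p = 0.000101). Arl4d, a small GTPase, fell from 84.6, 76.0 and 82.1 to 27.5, 23.6 and 33.9 CPM (−1.51 ± 0.12, adjusted p = 0.000118), and Rasd1, a Ras-like protein, from 50.03, 48.6 and 52.9 to 6.64, 5.45 and 13.8 CPM (−2.55 ± 0.36, adjusted p = 0.00597). Members named after their values were seen were the kinase Sgk1 (−1.29 ± 0.14, adjusted p = 0.000583), the leucine zipper protein Tsc22d3 (−0.98 ± 0.13, adjusted p = 0.0015) and the receptor cochaperone Fkbp5 (−0.72 ± 0.18, adjusted p = 0.0418). With any single library left out 14 to 17 members were lower, and 13 without control 2 and 24 h 1. Against 0.5 h, 8 of these 23 genes were lower and 0 higher at 24 h. The list was chosen with earlier results on these samples known, so its direction is not independent evidence.

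Immediate early genes, which cells switch on within minutes of a stimulus, fell in 14 of 30 cases and rose in 1 (median −0.97). Maff, a small basic leucine zipper factor, was at 41.5, 47.7 and 40.0 CPM in control, 10.2, 9.68 and 13.7 CPM at 0.5 h and 7.42, 7.29 and 9.07 CPM at 24 h (−2.44 ± 0.16, adjusted p = 6.18e-05). Atf3, a stress factor, fell from 69.6, 67.0 and 63.8 to 19.6, 11.5 and 21.7 CPM (−1.92 ± 0.20, adjusted p = 0.000611). Jun, the core of AP-1, fell from 323, 320.5 and 349 to 136, 109 and 139.9 CPM (−1.37 ± 0.12, adjusted p = 0.000145), and Klf4 from 205, 215 and 185 to 106, 89.6 and 119 CPM (−0.94 ± 0.11, adjusted p = 0.000611). Dusp6, a phosphatase that restrains ERK, was the member called higher (0.54 ± 0.12, adjusted p = 0.0201), a call lost without any 1 of 3 libraries. The groups did not overlap in 21 of 30 members, against 28% of all genes tested. The sum of the list was 3268 CPM in 24 h 1, 1515 CPM in 24 h 2 and 1979 CPM in 24 h 3, below the 4281 to 4779 CPM in control. Between 10 and 21 members were called lower with a single library left out, the fewest without control 1. At 0.5 h Maff (−1.94 ± 0.16, adjusted p = 0.0015), Atf3 (−1.33 ± 0.20, adjusted p = 0.0155) and Jun (−0.69 ± 0.11, adjusted p = 0.0209) were below control too, in a comparison that shares the controls.

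Part of the genes that FoxO factors switch on when insulin signalling is low fell too. Txnip, an inhibitor of thioredoxin that rises with glucose, was at 769, 759 and 722 CPM in control, 707, 646 and 710.2 CPM at 0.5 h and 356, 324 and 401 CPM at 24 h (−1.06 ± 0.10, adjusted p = 0.000205). Arrdc3, a relative of Txnip, fell from 160.1, 156 and 127 to 62.6, 61.5 and 68.9 CPM (−1.20 ± 0.10, adjusted p = 0.000168), and Arrdc2 from 55.9, 49.9 and 50.4 to 18.0, 15.6 and 21.8 CPM (−1.49 ± 0.13, adjusted p = 0.000146). Of 24 tested genes of circulating growth factors, insulin and FoxO, 11 fell and 1 rose (median −0.47). The one that rose was Cpt1a, which carries fatty acids into mitochondria (0.39 ± 0.10, adjusted p = 0.042), a call lost without any 1 of 4 libraries. At 24 h against 0.5 h, 7 were lower and 0 higher.

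Genes tied to the known effects of UVB changed in both directions. Targets of p53, the factor that DNA damage stabilises, fell in 8 of 24 cases and rose in 1 (median −0.16). Sesn1 was at 219.7, 204 and 187 CPM in control and 95.1, 104 and 99.3 CPM at 24 h (−1.03 ± 0.08, adjusted p = 0.000101). The cell cycle inhibitor Cdkn1a fell from 217, 238 and 246 to 51.2, 45.6 and 81.8 CPM (−1.97 ± 0.20, adjusted p = 0.00099), and Trp53inp1 (−1.81 ± 0.20, adjusted p = 0.00176) and Gadd45g (−1.30 ± 0.17, adjusted p = 0.00295) fell as well. Sesn1 also stands in the FoxO list and Cdkn1a in the glucocorticoid list. Aen, a nuclease that p53 induces, rose from 16.1, 23.3 and 21.9 to 34.8, 32.6 and 41.2 CPM (0.82 ± 0.15, adjusted p = 0.00951). Of 20 nucleotide excision repair genes, which remove UV lesions, 2 were called higher (10% called, against 8.42% of all genes). They were Ercc4 (0.50 ± 0.10, adjusted p = 0.0145) and Ercc6 (0.39 ± 0.10, adjusted p = 0.0407). Ercc4 lost the call without control 1 or 24 h 2 and Ercc6 without any 1 of the 6 libraries. Vdr, the vitamin D receptor, fell from 100.1, 112 and 81.9 to 16.2, 35.5 and 32.4 CPM (−1.81 ± 0.28, adjusted p = 0.00972), and Tiparp, a target of the aryl hydrocarbon receptor, from 90.5, 96.7 and 85.3 to 34.7, 27.01 and 27.9 CPM (−1.61 ± 0.11, adjusted p = 6.29e-05). These are 2 of 12 genes of the 2 receptor systems, with 0 higher (16.7% called, against 8.42% of all genes).

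Some genes of oxidative stress defence rose, and some chaperones fell. Hmox1, the heme oxygenase that oxidative stress induces, rose from 35.3, 39.0 and 44.0 to 70.8, 63.2 and 75.1 CPM (0.82 ± 0.12, adjusted p = 0.00235; adjusted p = 0.133 in the fit of all 27 libraries). Gclm (0.39 ± 0.09, adjusted p = 0.0197) and Prdx1 (0.30 ± 0.07, adjusted p = 0.0252) were called higher and Gclc (−0.59 ± 0.13, adjusted p = 0.0201) lower, so that 3 of 23 NRF2 and heme genes rose and 1 fell (17.4% called, against 8.42% of all genes). The calls of these last 3 genes were lost without several single libraries. Chaperones fell in 7 of 28 cases and rose in 0 (median −0.32), and 4 to 10 fell with a single library left out, the fewest without control 2 or 24 h 2. Hspb1, a small heat shock protein, fell from 62.6, 78.7 and 81.2 to 40.1, 37.8 and 44.7 CPM (−0.86 ± 0.12, adjusted p = 0.00195), and Dnajb9, Herpud1 and Atf4 of the endoplasmic reticulum stress response fell too, with log2 fold changes of −0.97 ± 0.15, −0.74 ± 0.14 and −0.47 ± 0.07. Hspb1 had an adjusted p of 0.424 in the fit of all 27 libraries. Rbm3, an RNA-binding protein that mild cold induces, rose from 68.6, 65.5 and 64.2 to 119, 112 and 101 CPM (0.74 ± 0.10, adjusted p = 0.0017), sharing 94 exon bases with Rbm3os. The splicing factors Srsf2 (0.40 ± 0.06, adjusted p = 0.00419) and Srsf7 (0.48 ± 0.08, adjusted p = 0.00444) rose with it, 3 of 9 members in all, and this count was 3 with any single library left out.

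Part of the genes of DNA replication and mitosis rose. Mcm4, Mcm5 and Mcm6 encode parts of the helicase that opens DNA for copying, and Ccnd1 the cyclin D1 that starts the cycle. Mcm5 was at 16.3, 11.8 and 21.3 CPM in control, 13.9, 15.1 and 9.66 CPM at 0.5 h and 32.7, 50.2 and 36.8 CPM at 24 h (1.27 ± 0.25, adjusted p = 0.017). Ccnd1 rose from 40.4, 30.6 and 39.1 to 60.0, 74.99 and 76.2 CPM (0.94 ± 0.14, adjusted p = 0.00329), Mcm6 by 0.73 ± 0.15, adjusted p = 0.0138 and Mcm4 by 0.67 ± 0.13, adjusted p = 0.0121. Of 35 tested members 9 rose and 0 fell (median 0.51). Ccnd1 shares 1100 exon bases with LTO1. Without control 1 the count was 2, and without control 2 and 24 h 1 it was 7. Cenph (1.80 ± 0.43, adjusted p = 0.0285), of the kinetochore, and E2f7 (1.74 ± 0.39, adjusted p = 0.0208), a repressor of cell cycle genes, were among the genes with the largest rise, at levels under 5 CPM. Cenph lost its call without any 1 of 5 libraries and E2f7 without any 1 of 3.

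Signalling of Wnt, BMP and TGF-beta, which shape the meninges and the bone beside them, changed in both directions. Wnt7b, a ligand that brain vessels need to form a barrier, was at 0.134, 0.0593 and 0.118 CPM in control, 0.758, 0.605 and 1.29 CPM at 0.5 h and 1.26, 2.19 and 1.90 CPM at 24 h (4.02 ± 0.58, adjusted p = 0.0026), and shares 324 exon bases with AU022754. The receptors Fzd7 (0.67 ± 0.12, adjusted p = 0.00641) and Fzd2 (0.53 ± 0.12, adjusted p = 0.0203) and the inhibitor Nkd2 (0.46 ± 0.10, adjusted p = 0.0208) rose, while Fzd4 (−0.71 ± 0.09, adjusted p = 0.00115), Wnt11 (−0.97 ± 0.24, adjusted p = 0.0351) and the coreceptors Lrp5 (−0.69 ± 0.17, adjusted p = 0.0356) and Lrp6 (−0.42 ± 0.11, adjusted p = 0.0469) fell. That is 4 and 4 of 41 tested members (19.5% called, against 8.42% of all genes). With a single library left out 2 to 5 were higher and 1 to 4 lower, and 1 was lower without control 2 and 24 h 1. Fzd2, Wnt11 and Lrp6 lost the call without any 1 of 5 of the 6 libraries, Lrp5 without any 1 of 4 and Nkd2 without any 1 of 3. Inhba, which forms activin A, rose from 5.48, 4.92 and 3.96 to 11.4, 11.8 and 12.1 CPM (1.30 ± 0.17, adjusted p = 0.00169), and Bmp4 was called higher (0.64 ± 0.15, adjusted p = 0.0282). Inhbb (−0.65 ± 0.14, adjusted p = 0.0199), the BMP antagonist Nog (−0.70 ± 0.15, adjusted p = 0.0208) and Id2 (−0.66 ± 0.11, adjusted p = 0.00603), a BMP target, fell. These 3 were the members called lower among 35 tested, and 17.1% were called in either direction, against 8.42% of all genes. Bmp4, Inhbb and Nog each lost the call without any 1 of 4 libraries. Jag1, a ligand of Notch receptors and not on these lists, rose from 70.6, 68.9 and 67.7 to 124, 134 and 140.3 CPM (0.94 ± 0.09, adjusted p = 0.000203), with 114, 130.02 and 105 CPM at 0.5 h.

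Vascular genes changed in both directions. Apln, a peptide of growing endothelium, was at 1.40, 1.30 and 1.005 CPM in control, 2.22, 2.42 and 1.85 CPM at 0.5 h and 7.24, 10.8 and 4.88 CPM at 24 h (2.62 ± 0.33, adjusted p = 0.00126). Edn1, the vasoconstrictor endothelin 1, fell from 22.4, 20.2 and 25.8 to 5.21, 6.57 and 6.98 CPM (−1.86 ± 0.15, adjusted p = 0.000119), and its receptor Ednrb was called higher (0.53 ± 0.14, adjusted p = 0.0395). Apold1, an endothelial gene that responds early to stimuli, fell from 148, 107 and 104 to 20.8, 20.4 and 25.8 CPM (−2.42 ± 0.21, adjusted p = 0.00045), and was at 41.1, 50.7 and 66.8 CPM at 0.5 h. Of 28 genes of hypoxia and vascular growth 2 rose and 3 fell, the latter with the glucose transporter Slc2a1 (−0.53 ± 0.14, adjusted p = 0.0382) and Ndrg1 (−0.40 ± 0.09, adjusted p = 0.0251). The organic anion transporter Slco1a4 was called higher (0.74 ± 0.17, adjusted p = 0.0227). Endothelial and barrier genes had 1 of 24 higher and 3 lower. The shares called were 17.9% for hypoxia and vascular growth and 16.7% for endothelial and barrier genes, against 8.42% of all genes. Calls of Ednrb, Slc2a1, Ndrg1 and Slco1a4 were lost without most single libraries. They were also lost in the fit of all 27 libraries (adjusted p from 0.0536 for Ednrb to 0.381 for Slco1a4).

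Genes of dural fibroblasts changed, more of them downward, while those of arachnoid and pia changed little. Pi16, a peptidase inhibitor that marks a pool of adventitial fibroblasts, was at 34.7, 29.1 and 38.2 CPM in control, 44.0, 47.6 and 66.3 CPM at 0.5 h and 12.2, 12.2 and 12.8 CPM at 24 h (−1.46 ± 0.16, adjusted p = 0.000583; −2.09 ± 0.16, adjusted p = 0.000585 against 0.5 h). Crabp2, a retinoic acid carrier of dural and arachnoid cells, fell from 28.2, 24.8 and 23.3 to 14.4, 14.7 and 16.9 CPM (−0.73 ± 0.13, adjusted p = 0.00742). Foxc2, a transcription factor of meningeal mesenchyme, rose (0.47 ± 0.09, adjusted p = 0.0138), though less than its 0.97 ± 0.09, adjusted p = 0.00178 at 0.5 h. In the fit of all 27 libraries neither Crabp2 nor Foxc2 was called at 24 h (adjusted p = 0.26 and 0.238). Of 15 dural fibroblast genes 5 fell and 1 rose (median −0.26). The others that fell were Foxp1 (−0.39 ± 0.09), Smoc2 (−0.48 ± 0.12) and Col15a1, and 1 member, Pi16, was called lower without control 2 and 24 h 1. With a single library left out 2 to 4 were lower, the fewest without control 1 or control 2. Arachnoid genes had 1 of 17 lower, Crabp2 again, and pial and perivascular genes 1 of 14 higher, Cxcl12, and 1 lower, Lamc3 (−0.69 ± 0.12, adjusted p = 0.00867). The shares called were 5.88% and 14.3%, against 8.42% of all genes. Chad, a matrix protein of cartilage and bone, fell from 441, 411 and 349 to 175, 191 and 199 CPM (−1.09 ± 0.10, adjusted p = 0.000222).

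Bone genes also changed in both directions. Sp7 (osterix), which commits cells to the osteoblast fate, rose from 65.4, 85.8 and 68.1 to 133, 177 and 137 CPM (1.03 ± 0.20, adjusted p = 0.0191), and Panx3, a channel of bone and cartilage cells, from 2.74, 2.37 and 1.30 to 8.44, 15.8 and 9.33 CPM (2.39 ± 0.37, adjusted p = 0.00379). The members that fell are genes of mature osteoblasts and osteocytes. Bglap2 and Bglap, near-identical osteocalcin genes whose reads may be divided between them, went from 423, 582 and 395 to 118, 228 and 154 CPM (−1.49 ± 0.29, adjusted p = 0.0209) and from 577, 802 and 473 to 171, 361 and 210.3 CPM (−1.32 ± 0.32, adjusted p = 0.048). Phex, of osteocytes, fell (−0.88 ± 0.23, adjusted p = 0.0419). In all 2 of 20 rose and 3 fell, and the 3 falls lost the call without control 2 and 24 h 1. The summed level of the list was lowest in 24 h 1, and its part in these falls was not tested. The call of Sp7 was lost without control 1, control 3 or 24 h 2, while Panx3 kept its call under each alternative.

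**Figure D5:**
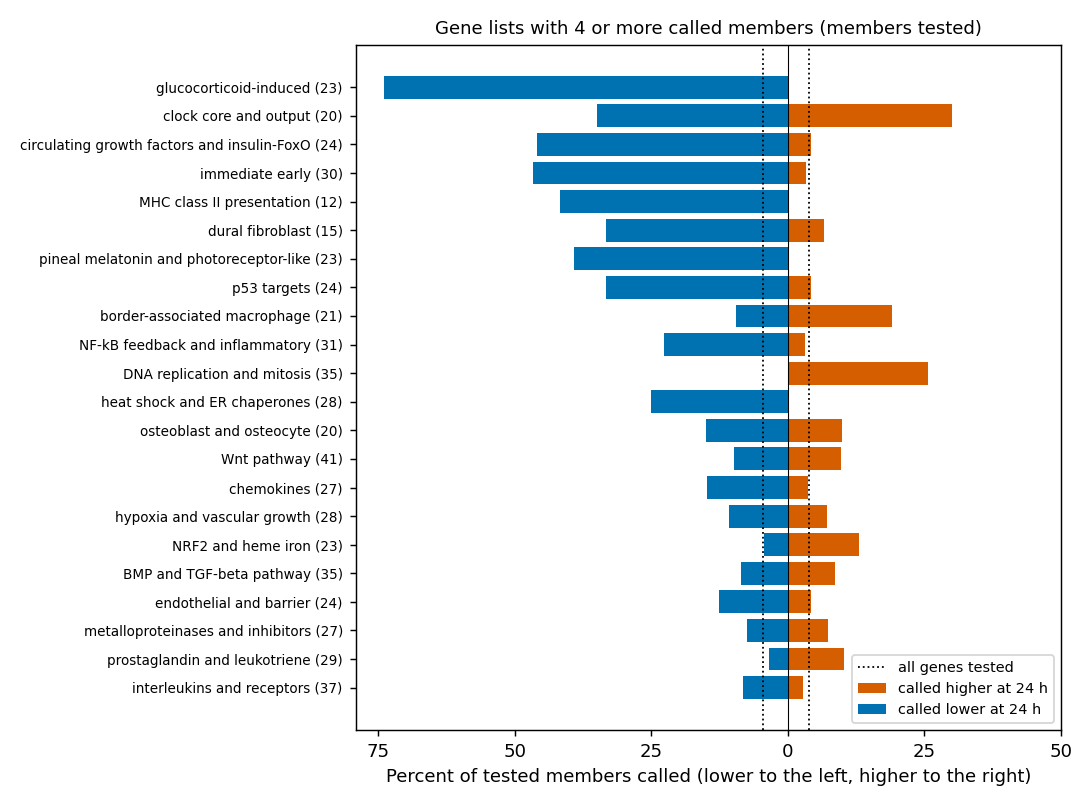
Bars give the percent of tested members of each list that were called lower (left) or higher (right) at 24 h, for the lists with at least 4 called members, the number of tested members being in parentheses. Dotted lines mark 4.45% lower and 3.97% higher among all 18542 genes, and the glucocorticoid list stands farthest to the left with 17 of 23.

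Basic metabolic gene sets changed in few members. Cytosolic ribosomal protein genes had 1 of 60 higher, Rps2 (0.39 ± 0.09, adjusted p = 0.0249), and 2 lower, Rps27 (−1.08 ± 0.23, adjusted p = 0.0189) and Rpl34 (−0.33 ± 0.08, adjusted p = 0.0291), a share under that of all genes. Each of these 3 calls was lost without at least 4 of the 6 libraries taken singly. Nuclear genes of oxidative phosphorylation had 1 of 60 lower, Atp5l (−1.16 ± 0.18, adjusted p = 0.00379), and 0 higher. Retinoid genes had 2 of 16 lower (12.5%, against 8.42% of all genes called), Crabp2 and Crabp1 (−0.80 ± 0.16, adjusted p = 0.0153). Single members were called in the lists of monocytes (Ccr2, 1 of 13 higher), lymphatic endothelium (Lyve1, 1 of 10 higher), chondrocytes (Chad, 1 of 11 lower), mural cells (Lmod1, 1 of 15 lower, −0.49 ± 0.11, adjusted p = 0.0227), osteoclasts (Nfatc1, 1 of 13 lower, −0.33 ± 0.08, adjusted p = 0.0278) and neurons (Nrgn, 1 of 18 lower, −0.83 ± 0.23, adjusted p = 0.048). The shares called in these lists ran from 5.56% to 10%, against 8.42% of all genes. Lmod1, Nfatc1 and Nrgn also lost the call without at least 4 libraries taken singly. None of the astrocyte (14), oligodendrocyte (17), Schwann cell and melanocyte (13), erythroid (15), keratinocyte (8) or adipocyte (9) genes was called.

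Several genes picked by the smallest p belong to none of these groups. That choice favours tight replicates, and it required control and 24 h libraries that did not overlap. Rgs9bp, which anchors a regulator of G protein signalling, was at 43.9, 40.6 and 39.9 CPM in control, 25.03, 22.8 and 26.2 CPM at 0.5 h and 12.03, 11.4 and 10.8 CPM at 24 h (−1.86 ± 0.10, adjusted p = 2.86e-05), the smallest p of the comparison. Smim3, a small membrane protein, was at 63.3, 66.2 and 54.5 CPM in control, 30.5, 29.3 and 29.8 CPM at 0.5 h and 21.2, 21.9 and 20.9 CPM at 24 h (−1.52 ± 0.10, adjusted p = 6.18e-05). For the Kruppel-like factor Klf13 the levels were 253, 236 and 242 CPM, 154, 146 and 140.2 CPM and 118, 119 and 117 CPM at the same times (−1.05 ± 0.07, adjusted p = 6.18e-05). In these 3 genes each group was clear of the other 2. Sphk1, the kinase that makes sphingosine 1-phosphate, fell from 65.0, 69.3 and 74.9 to 27.1, 24.996 and 26.5 CPM (−1.41 ± 0.10, adjusted p = 6.45e-05). Upward, Kctd11, an adaptor of ubiquitin ligases, was at 7.88, 9.55 and 8.57 CPM in control, 14.5, 18.5 and 16.2 CPM at 0.5 h and 25.7, 29.9 and 26.6 CPM at 24 h (1.66 ± 0.14, adjusted p = 0.000119). Ppp1r3b, which directs a phosphatase to glycogen, rose from 17.4, 15.7 and 17.2 to 47.9, 37.1 and 43.3 CPM (1.35 ± 0.12, adjusted p = 0.000171), Fam111a, a protease of replicating cells, from 12.96, 14.1 and 13.5 to 28.8, 35.8 and 38.5 CPM (1.35 ± 0.12, adjusted p = 0.000179), and S100pbp from 34.5, 34.4 and 33.6 to 54.1, 59.8 and 62.9 CPM (0.79 ± 0.08, adjusted p = 0.000546). The zinc finger gene Zfp780b was at 6.35, 6.29 and 6.32 CPM in control, 14.7, 13.4 and 14.2 CPM at 0.5 h and 15.1, 16.8 and 15.7 CPM at 24 h (1.33 ± 0.13, adjusted p = 0.000271). For S100pbp, Jag1 and Zfp780b the 24 h level differed from the 0.5 h level by 0.06 ± 0.08, 0.19 ± 0.09 and 0.17 ± 0.13, none of them called.

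Of the remaining genes picked by size, those that rose were Nxpe5 (from 2.81, 1.54 and 2.25 to 7.72, 10.1 and 7.93 CPM, 1.96 ± 0.27, adjusted p = 0.00224), Mthfd1l, a mitochondrial enzyme of folate metabolism (from 4.14, 4.51 and 5.73 to 14.4, 21.4 and 11.9 CPM, 1.73 ± 0.28, adjusted p = 0.005), Kbtbd8 (2.03 ± 0.42, adjusted p = 0.0149) and Zfp493 (1.77 ± 0.46, adjusted p = 0.0385). Those that fell were mostly low in level. The apolipoprotein L gene Apol8 went from 6.55, 9.67 and 14.3 to 0.898, 0.711 and 1.14 CPM (−3.46 ± 0.40, adjusted p = 0.000718), with 2.04, 1.41 and 3.20 CPM at 0.5 h. Sytl1, a vesicle trafficking protein, went from 7.35, 8.48 and 7.92 to 1.20, 1.01 and 2.09 CPM (−2.46 ± 0.36, adjusted p = 0.00266). Teddm2 (−2.23 ± 0.42, adjusted p = 0.0103), Gpr3 (−2.39 ± 0.51, adjusted p = 0.0173), the potassium channel subunit Kcnk7 (−2.28 ± 0.51, adjusted p = 0.0206), the folate enzyme Ftcd (−2.30 ± 0.51, adjusted p = 0.0204), Iqcn (−4.31 ± 0.91, adjusted p = 0.0179) and Atcayos (−3.27 ± 0.73, adjusted p = 0.0228) fell from means under 6 CPM. Atcayos shares 432 exon bases with Atcay on the opposite strand, Teddm2 116 exon bases with Glul, and Gpr3 204 exon bases with Cd164l2. Kbtbd8, Zfp493, Gpr3, Kcnk7, Ftcd, Iqcn and Atcayos each lost the call without at least 1 of the 6 libraries.

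Set against the 0.5 h libraries in place of the controls, 434 genes (2.34%) were called at 24 h, 198 higher (1.07%) and 236 lower (1.27%). This comparison reuses the 24 h libraries, so it is not separate support for genes picked by the 24 h to control change. Mmp3, Chil1, Saa3, Vsig4, Apln, Arntl, Aanat, Cxcl2, Cd74 and Pi16 passed in it, while Per1, Maff, Ptgdr and Jag1 did not. Over the first 0.5 h, in a comparison that shares the controls, 162 genes (0.874%) were called. Rgs9bp, Smim3, Klf13 and Kctd11 stood between control and 24 h in all 3 libraries at 0.5 h and were called at both times. Mmp3 (0.56 ± 0.26, adjusted p = 0.377), Chil1 (−0.24 ± 0.18, adjusted p = 0.644) and Arntl (−0.15 ± 0.17, adjusted p = 0.794) were not called at 0.5 h.

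The same interval was tested in brain and skull, with their own controls, in a fit of all 27 libraries. The 24 h change in the meninges differed from that in the brain for 283 of 21500 genes (1.32%), 129 with a more positive change in the meninges (0.6%) and 154 with a more negative one (0.716%). From that in the skull it differed for 136 (0.633%), 67 more positive (0.312%) and 69 more negative (0.321%). Of the 45 distinct genes picked above by size or by p, 21 differed from the brain and 3 from the skull. These genes were picked for their change in the meninges, which is part of each difference. A share above that of all genes is therefore partly set by the choice. Mmp3 was called higher in the skull as well (3.42 ± 0.37) and not in the brain (−2.25 ± 1.18, adjusted p = 0.399). Maff (−3.21 ± 0.36), Apold1 (−2.39 ± 0.29), Map3k6 and Cxcl2 were called lower in the brain as well, and their changes did not differ from those in the meninges by the test. Chil1 differed from both tissues. Among clock genes, Dbp (−1.96 ± 0.45, adjusted p = 0.0469) and Per3 (−1.06 ± 0.24, adjusted p = 0.0455) rose less in the meninges than in the skull and Arntl fell less (0.97 ± 0.19, adjusted p = 0.0129), while the difference for Per2 did not pass (−0.22 ± 0.26, adjusted p = 0.844).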

How the data were processed

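The authors deposited 1 table of raw counts per gene for 27 libraries. Reads were aligned with HISAT2 2.1.0 to mm10, per the submitters' processing notes. How reads were counted, and with which annotation and strandedness, is not given in the sources used here. Besides those marked in the text, named genes that share exon bases with a neighbour, whose reads cannot be told apart without strand, are Arntl, Atp5l, Ccn2, Cdkn1a, Ciita, Cry2, E2f7, Fam111a, Foxp1, Gclm, Gngt2, H2-DMa, Jun, Lamc3, Maf, Ndrg1, Pi16, Prg4, Rps2, Slc2a1, Sphk1, Srsf2, Tiparp, Tnfaip2, Txnip and Wnt11, with smaller overlaps in Bmp4, Col15a1, Col7a1, Cd74, Dnajb9, Edn1, F13a1 and Rora. Gene positions come from the GENCODE M21 annotation of GRCm38, the assembly also called mm10.

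The 9 meninges libraries were fitted together in edgeR 4.0.16 (R 4.3.3) with TMM scaling. Genes needed 10 counts, scaled to library size, in 3 libraries and 15 in all (filterByExpr). The robust quasi-likelihood F test gave p-values, adjusted by the Benjamini-Hochberg method over all genes tested, with a threshold of 0.05. SE is the log2 fold change divided by the square root of F. Tested on simulated data with 3 libraries a group for the 24 h to control comparison (18168 genes), this fit recovered 51% of 2-fold and 79% of 4-fold changes, with 7 false calls among 137. The simulated libraries had no uneven share of neighbouring tissue, and far fewer genes were called than the 1561 in the data.

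Named genes were, per direction, the 15 called genes with the largest fold, the 10 with the smallest p, and up to 4 in each of 58 lists. Picks by fold or by p needed a gene symbol and control and 24 h libraries that did not overlap. Genes whose average level lay under 1 CPM were passed over in these picks. This minimum level did not apply to the picks from lists, among them Wnt7b. Others are said to be named after their values were seen. The genes, lists and comparison were chosen with earlier results of these data known. Alternatives were RLE scaling, no filter, no robust option, limma-voom (limma 3.58.1), DESeq2 1.42.0, other sample sets, a replicate block, a correction for GC content and length, and leaving out libraries. Intervals cover counting error only. 12 listed genes were not analysed here, and some results are not reported here.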

Additional observations from a re-analysis of the deposited data

Results flagged for a closer look

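The results below were picked out because the 24 h change differed between tissues by a test of the difference itself (edgeR quasi-likelihood interaction, all 27 libraries, adjusted over 21500 genes). Each value is the log2 change in the meninges minus that in the other tissue, ± SE. Only genes already picked for their change in the meninges were looked up, and that change enters each difference.

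For several genes that rose in the meninges the change was more positive than in the brain, where none of them was called. The difference was 6.05 ± 1.17, adjusted p = 0.00869 for Mmp3, 5.68 ± 1.13, adjusted p = 0.00943 for Saa3 and 2.72 ± 0.37, adjusted p = 0.000582 for Chil1. Apln (2.84 ± 0.39, adjusted p = 0.000582), Kctd11 (2.77 ± 0.63, adjusted p = 0.0275), Cenph (3.07 ± 0.76, adjusted p = 0.0463), Mthfd1l (1.76 ± 0.31, adjusted p = 0.00433), Fam111a (1.32 ± 0.25, adjusted p = 0.00739) and S100pbp (0.68 ± 0.16, adjusted p = 0.0336) differed in the same direction. Saa3 had few counts in the controls, so its fitted difference depends on the prior count. All of these genes but Chil1 and Cenph were also called higher in the skull, among them Saa3 (6.73 ± 0.46) and Apln (2.71 ± 0.29). Only Chil1 differed from the skull.

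The clock output Dbp rose more in the meninges than in the brain (2.15 ± 0.42, adjusted p = 0.0108) and less than in the skull (−1.96 ± 0.45, adjusted p = 0.0469). The change was more negative than in the brain for Per1 (−1.11 ± 0.21, adjusted p = 0.00723), Nfil3 (−1.91 ± 0.32, adjusted p = 0.00329) and the pineal enzyme Aanat (−3.62 ± 0.57, adjusted p = 0.00198). Per1 and Nfil3 were also called lower in the skull (−1.86 ± 0.15 and −2.17 ± 0.22), and Aanat was not (−2.34, adjusted p = 0.115). None of these 3 genes differed from the skull.

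The change was more negative in the meninges than in the brain also for Atcayos (−5.60 ± 0.98, adjusted p = 0.00415), Apol8 (−3.27 ± 0.50, adjusted p = 0.00107), Teddm2 (−1.89 ± 0.48, adjusted p = 0.0488), Sphk1 (−1.56 ± 0.38, adjusted p = 0.0425), Tiparp (−1.24 ± 0.21, adjusted p = 0.00254), Smim3 (−1.07 ± 0.24, adjusted p = 0.0244), Klf13 (−0.81 ± 0.10, adjusted p = 0.00025) and Sesn1 (−0.78 ± 0.11, adjusted p = 0.000582). None of these was called in the brain, where Atcayos stood at 2.31 ± 0.65 (adjusted p = 0.0606), the opposite sign to the meninges. In the skull all of them but Atcayos were called lower, among them Tiparp (−1.40 ± 0.15) and Klf13 (−0.92 ± 0.07). Against the skull, Chil1 rose more in the meninges (2.26 ± 0.34, adjusted p = 0.00154) and Sesn1 fell less (0.54 ± 0.11, adjusted p = 0.015).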

How the results depend on the processing

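Of 170 named genes called at 24 h, 104 kept the call when each library was left out in turn, 66 lost it in at least 1 case, and none changed sign. The 24 h to control count of 1561 (736 higher, 825 lower) was 902 (371 and 531) with the 2 groups fitted alone, and 647 (317 and 330) without control 2 and 24 h 1, an alternative chosen after seeing the data. DESeq2 gave 1258 lower. With single libraries left out it ranged from 727 to 1266 (282 to 639 higher, 442 to 680 lower), the lowest without control 2. Over 16534 genes the deviations of same-numbered control and 24 h libraries correlated at −0.48, −0.14 and −0.04. The summed interferon list nevertheless had the same replicate order in both groups (2475, 1184 and 4177 CPM in control, 2832, 1091 and 4925 CPM at 24 h). The labels do not say whether the numbers pair libraries, and these values cannot decide it. With a replicate block the count was 1030 (457 higher), and with GC and length correction added 458 were higher. The block ended the call for 31 of the 170 genes. The fit of all 27 libraries ended it for 43 of the 170, with an adjusted p of up to 0.449. Not every such loss is marked in the text above.

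The 24 h to 0.5 h count of 434 (198 and 236) was 1039 (477 and 562) in DESeq2, and limma-voom gave 329 higher. A replicate block gave 241 (112 and 129), and a replicate block with GC and length correction 279 (130 and 149). Single libraries left out gave 73 to 318 (22 to 175 higher, 51 to 143 lower). The 0.5 h to control count of 162 (68 and 94) was 261 (114 and 147) with no filter, 295 (114 and 181) in limma-voom, 606 (253 and 353) in DESeq2 and 371 (164 and 207) with all 27 libraries. The 2 groups alone gave 42 higher, the replicate block 67 (21 and 46), and the block with GC and length correction 71 (22 and 49). Single libraries left out gave 17 to 106 (4 to 40 higher, 13 to 66 lower).

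Differences from the brain gave 87 lower (main 154) with no filter, and 156 to 323 in all with single libraries left out (62 to 193 higher, 84 to 178 lower). Differences from the skull gave 37 higher (main 67) in limma-voom, and 77 to 153 with single libraries left out (35 to 89 higher, 37 to 76 lower). The cause of these shifts was not tested. With 3 libraries a group, simulated 2-fold changes were recovered in 51% of cases, so changes of that size can be missed. The simulation gave 137 calls and the data 1561, so the p-value needed for a call was not the same. The share missed in the data may therefore differ.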

Other observations

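A pair of Ensembl IDs without a gene symbol in the annotation used here fell from high levels, and both were chosen after their values were seen. ENSMUSG00000121069 was at 927, 880 and 728 CPM in control, 281, 233 and 478 CPM at 0.5 h and 103, 83.5 and 209 CPM at 24 h (log2 fold change −2.68 ± 0.43, edgeR adjusted p = 0.014). ENSMUSG00000121137 was at 214, 156 and 116 CPM in control, 40.1, 35.0 and 68.0 CPM at 0.5 h and 17.2, 19.9 and 32.4 CPM at 24 h (−2.81 ± 0.39, adjusted p = 0.00913). In both, no library at either time after light reached the lowest control.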
